A study of Mus musculus with 18 samples.

Results

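Hepatic transcripts of the insulin signaling cascade and of 2 insulin-like growth factor (IGF) binding proteins were examined in mice with myocardial infarction (MI). The 10 genes were chosen by name and matched exactly to the gene symbols: Insr, Irs1, Irs2, Pik3r1, Akt1, Akt2, Foxo1, Foxo3, Igfbp1 and Igfbp2. All 10 were found among 50600 genes measured 1 day after the operation and among 17127 genes measured at 12 hours, and all 10 passed the filter on low counts in both experiments (14266 and 12548 genes tested).

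RNA from 18 livers of male mice was sequenced, 3 livers in each of 6 groups. At 1 day the groups were HMRKO + MI, LC + MI, HMRKO + sham and LC + sham. HMRKO mice lacked the mineralocorticoid receptor (MR) in hepatocytes through floxed MR alleles and Cre recombinase driven by the albumin promoter, which is active in hepatocytes. Littermate controls (LC, wild type in the labels) carried the floxed alleles without Cre. At 12 hours the groups were C57 MI and C57 sham, from C57BL/6 mice with no engineered allele named. In MI mice the left anterior descending artery of the heart was tied off for good, sham mice had the same operation without the ligature, and the labels give an age of 12 postnatal weeks. The operation of the MI livers at 1 day and both times are named only in the study's design text, and no source used here gives the feeding state or the hour at which livers were taken. Nothing in the labels marks a batch.

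Insulin binds its receptor on hepatocytes, and the activated receptor phosphorylates the adaptor proteins IRS1 and IRS2, which recruit phosphatidylinositol 3-kinase (PI3K). PI3K then leads to activation of the kinase AKT, which phosphorylates FOXO transcription factors and keeps them out of the nucleus. Fasting or loss of insulin action returns FOXO to the nucleus, where it raises transcription of genes such as Igfbp1, whose secreted product binds IGFs in plasma and is made mainly by the liver. All of the regulation by phosphorylation lies outside what transcript counts measure.

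The Igfbp1 promoter is the textbook site of insulin action on transcription, and windows from 250 bases before to 50 bases after the annotated start (RefSeq, GRCm38.p6) were therefore searched for known motifs on both strands. Windows were found for 9 of the 10 genes, 15 windows in all. The letters TGTTTTG or TATTTTG, cores of the insulin response element that FOXO proteins bind, occurred in windows of Igfbp1, Irs1, Irs2 and Pik3r1 (4 of 15 windows, against 10.2% of 32851 promoter windows of all genes). The forkhead core TGTTTAC occurred in 1 of 15 windows, of Akt1, against 3.65% of all windows, and the cAMP response element TGACGTCA in 0 of 15, against 1.79%. No match overlapped a match of another motif. The windows of Igfbp1, Irs2 and Irs1 are shown because they hold the TGTTTTG core (capitals, together with TATTTTG; read as CAAAACA where the match is on the other strand). A match describes these letters only.
Igfbp1: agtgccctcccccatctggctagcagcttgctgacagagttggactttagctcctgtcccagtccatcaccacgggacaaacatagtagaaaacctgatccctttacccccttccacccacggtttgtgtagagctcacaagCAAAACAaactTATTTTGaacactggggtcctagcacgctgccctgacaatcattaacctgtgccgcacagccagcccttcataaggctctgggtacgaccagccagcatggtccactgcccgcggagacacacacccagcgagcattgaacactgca
Irs2: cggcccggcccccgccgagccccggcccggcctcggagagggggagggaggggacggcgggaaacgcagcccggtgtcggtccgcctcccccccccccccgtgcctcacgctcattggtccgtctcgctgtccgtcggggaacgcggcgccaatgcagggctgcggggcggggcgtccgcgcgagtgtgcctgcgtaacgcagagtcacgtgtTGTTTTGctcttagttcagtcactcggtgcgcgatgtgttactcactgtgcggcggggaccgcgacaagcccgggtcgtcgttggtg
Irs1: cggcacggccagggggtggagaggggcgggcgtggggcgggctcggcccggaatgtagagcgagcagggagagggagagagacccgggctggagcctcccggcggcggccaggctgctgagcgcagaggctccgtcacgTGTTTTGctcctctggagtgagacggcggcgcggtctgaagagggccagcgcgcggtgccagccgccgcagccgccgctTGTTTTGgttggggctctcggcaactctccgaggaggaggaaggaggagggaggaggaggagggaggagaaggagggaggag
The Igfbp1 window lies at chr11:7197537-7197836 on the plus strand, with matches that begin at positions -108 and -97 from the annotated start. The Irs2 window lies at chr8:11008880-11009179 and the Irs1 window at chr1:82291390-82291689, both on the minus strand, with 1 match at position -37 from the Irs2 start and matches at positions -111 and -32 from the Irs1 start.

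Libraries at 1 day held 19098704 to 28945526 counts. At 12 hours the C57 MI libraries held 16745688 to 19190438 estimated counts and the C57 sham libraries 1361564 to 2255837, so that MI libraries were 9.6 times deeper on average and depth cannot be told apart from the operation there. The deleted gene, Nr3c2 (MR), measured 0.895, 1.1 and 0.913 CPM (counts relative to library size) in HMRKO + MI livers, 3.56, 2.13 and 1.9 CPM in LC + MI livers, 2.93, 3.76 and 2.55 CPM in HMRKO + sham and 5.6, 6.7 and 4.71 CPM in LC + sham, so each HMRKO library lay below every LC library of the same operation. The log2 fold change of Nr3c2 was -1.36 ± 0.29 (SE) in HMRKO + MI versus LC + MI (edgeR adjusted p = 0.00505). In HMRKO + sham versus LC + sham it was -0.88 ± 0.25 and not called (edgeR adjusted p = 0.471). The share of counts from mitochondrially encoded genes was 18.9% in LC + MI replicate 1 and 7.53% to 15.6% in the other 11 livers at 1 day. Hepatocyte markers (7 of 7 found) dominated every library over those of the 7 other liver cell types listed. All CPM values are scaled by the trimmed mean of M values (TMM). In whole liver, less transcript per cell and fewer cells with the transcript cannot be told apart.

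Igfbp1 showed the widest differences of the 10 genes at 1 day. It measured 271, 151 and 127 CPM in HMRKO + MI livers, against 12.4, 30.5 and 6.16 CPM in LC + MI livers, with no overlap. In sham livers it measured 3.27, 4.14 and 4.87 CPM in HMRKO + sham and 6.17, 31.7 and 2.43 CPM in LC + sham. One LC + sham liver, replicate 2, thus stood at the level of the highest LC + MI liver, and the 3 HMRKO + MI livers lay above every other liver at 1 day. In order of mean, HMRKO + MI (183 ± 77.5 CPM, SD, n = 3) was followed by LC + MI (16.4 ± 12.6), LC + sham (13.4 ± 15.9) and HMRKO + sham (4.09 ± 0.803), and the last 2 overlapped, as did LC + MI with LC + sham.

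The log2 fold change of Igfbp1 was 5.48 ± 0.87 (SE) in HMRKO + MI versus HMRKO + sham (edgeR adjusted p = 0.000431) and 3.49 ± 0.78 in HMRKO + MI versus LC + MI (edgeR adjusted p = 0.00634). In LC + MI versus LC + sham it was 0.28 ± 0.72 (edgeR adjusted p = 0.866), and without LC + sham replicate 2, the sham liver at 31.7 CPM, it was 1.92 with an edgeR adjusted p of 0.127. The responses to MI differed between genotypes by 5.20 ± 1.09 on the log2 scale (interaction, edgeR adjusted p = 0.0128). That difference was 3.56 without LC + sham replicate 2 (edgeR adjusted p = 0.0272) and 6.02 without LC + MI replicate 2 (edgeR adjusted p = 0.009). The HMRKO + MI versus LC + MI value was 4.31 without LC + MI replicate 2 (edgeR adjusted p = 0.00565). With each of the 12 livers left out in turn it ran from 3.09 to 4.31 and stayed called (edgeR adjusted p up to 0.0298). HMRKO + sham versus LC + sham gave -1.71 ± 0.77 (edgeR adjusted p = 0.826), or -0.07 without LC + sham replicate 2.

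At 12 hours Igfbp1 measured 62.4, 260 and 201 TPM (transcript abundance scaled for length and library size) in C57 MI livers, against 2.62, 11 and 8.76 TPM in C57 sham livers. The sham values rested on 4, 24 and 22 estimated counts. The log2 fold change was 5.12 ± 0.58 (edgeR adjusted p = 3.48e-05), and 4.96 with all 6 libraries thinned to the depth of the shallowest (edgeR adjusted p = 3.96e-06), an alternative added after the depths were seen. Igfbp1 thus stood above its sham livers without overlap in C57 mice at 12 hours and in HMRKO mice at 1 day, and overlapped them in LC mice at 1 day. Strain, genotype, time and table differ between these experiments, and no test was made across them.

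Igfbp2, a second IGF binding protein secreted by the liver, was abundant in every library. It measured 309, 285 and 229 CPM in HMRKO + MI livers, against 91.8, 149 and 142 CPM in LC + MI livers. Sham livers held 228, 169 and 229 CPM in HMRKO + sham and 237, 173 and 198 CPM in LC + sham. LC + MI was the low group: it lay below all 9 other livers at 1 day. The log2 fold change was 1.11 ± 0.21 in HMRKO + MI versus LC + MI (edgeR adjusted p = 0.00312), -0.67 ± 0.21 in LC + MI versus LC + sham (edgeR adjusted p = 0.0852; DESeq2 gave 0.0288) and 0.39 ± 0.21 in HMRKO + MI versus HMRKO + sham (edgeR adjusted p = 0.145). The interaction was 1.06 ± 0.30 (edgeR adjusted p = 0.0323), and was not called with library size alone (1.00, edgeR adjusted p = 0.0804). It also missed the threshold without any of 6 livers (LC + sham replicates 1 and 3, LC + MI replicate 1, HMRKO + sham replicate 2, HMRKO + MI replicates 1 and 2), with adjusted p from edgeR up to 0.0775 and values from 0.87 to 1.08.

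In C57 livers at 12 hours Igfbp2 ran the other way from LC livers at 1 day. It measured 282, 251 and 247 TPM in C57 MI livers, against 113, 180 and 174 TPM in C57 sham livers, and the log2 fold change was 1.50 ± 0.22 (edgeR adjusted p = 0.000153). The size of this value depended on scaling: it was 0.85 with library size alone (edgeR adjusted p = 0.00682) and 0.77 on the log2(TPM + 1) scale (limma adjusted p = 0.0167).

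**Figure D1:**
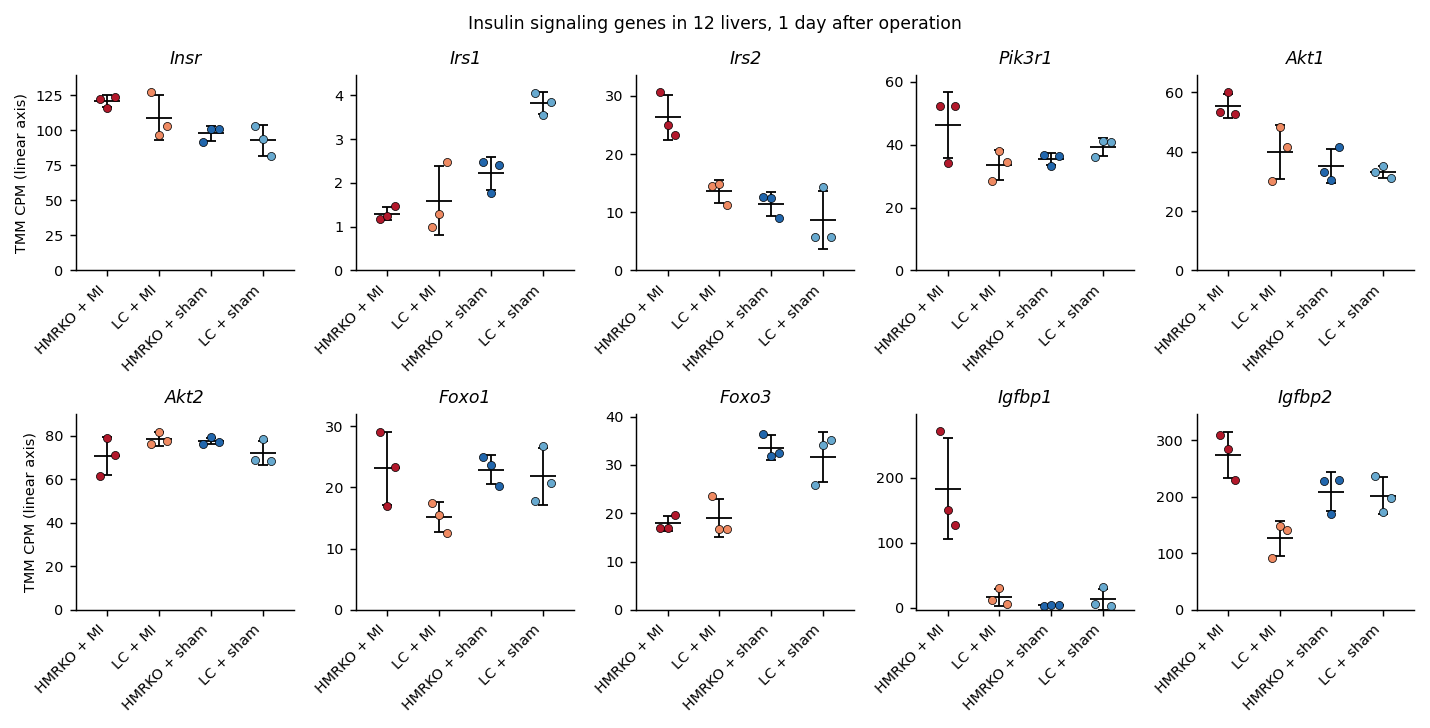
TMM-scaled CPM of the 10 genes in each of the 12 livers at 1 day (y axis, linear), by group (x axis), with points for livers and bars for mean ± SD (n = 3). Igfbp1 reached 127 to 271 CPM in HMRKO + MI and at most 31.7 CPM in any other liver, and Foxo3 was lower in both MI groups than in their sham groups.

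Insr encodes the insulin receptor. Its transcript measured 122, 116 and 124 CPM in HMRKO + MI livers, 127, 96.8 and 103 CPM in LC + MI livers, 91.6, 101 and 101 CPM in HMRKO + sham and 103, 93.6 and 81.5 CPM in LC + sham. These levels spanned a narrow range, and none of the comparisons at 1 day passed the test. HMRKO + MI lay above HMRKO + sham without overlap, with a log2 fold change of 0.31 ± 0.14 (edgeR adjusted p = 0.0948). In C57 livers it measured 15.8, 15.6 and 14.4 TPM after MI, against 11.1, 12.8 and 15.9 TPM after sham, which overlap. On the TMM scale the C57 log2 fold change was 0.82 ± 0.20 (edgeR adjusted p = 0.00435), but it was 0.17 with library size alone (edgeR adjusted p = 0.51).

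Irs2, the adaptor that mediates much of insulin's effect in liver and is itself a FOXO target, moved in HMRKO livers. It measured 30.6, 25 and 23.3 CPM in HMRKO + MI livers, against 14.5, 14.9 and 11.3 CPM in LC + MI and 12.6, 12.5 and 9.04 CPM in HMRKO + sham. Every HMRKO + MI liver lay above every other liver at 1 day. The log2 fold change was 1.21 ± 0.30 versus HMRKO + sham (edgeR adjusted p = 0.0062) and 0.96 ± 0.30 versus LC + MI (edgeR adjusted p = 0.0286). The call versus LC + MI was lost without HMRKO + MI replicate 1 or 2 or LC + MI replicate 1 or 3 (0.84 to 1.01, edgeR adjusted p up to 0.0901).

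LC + sham livers held 5.78, 14.4 and 5.75 CPM of Irs2, and the high one was again replicate 2. LC + MI versus LC + sham gave 0.65 ± 0.30 (edgeR adjusted p = 0.234), and 1.23 without that liver (edgeR adjusted p = 0.016). The interaction of Irs2 was 0.56 ± 0.42 (edgeR adjusted p = 0.375), so a difference between the genotypes in its response to MI was not shown. At 12 hours Irs2 had 63, 145 and 114 estimated counts in C57 MI livers and 9, 9 and 23 in C57 sham livers, and its log2 fold change was 0.38 ± 0.41 (edgeR adjusted p = 0.427), with the opposite sign under library size alone (-0.29).

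Irs1, the second adaptor, rested on 20 to 113 counts per liver at 1 day. It measured 1, 1.29 and 2.49 CPM in LC + MI livers, against 4.06, 3.55 and 3.85 CPM in LC + sham livers. HMRKO livers held 1.17, 1.24 and 1.47 CPM after MI and 2.47, 1.78 and 2.41 CPM after sham. LC + sham was the high group, above all 9 other livers. Irs1 fell in LC + MI versus LC + sham, with a log2 fold change of -1.24 ± 0.29 (edgeR adjusted p = 0.0322), and the value in HMRKO + MI versus HMRKO + sham was -0.78 ± 0.31 (edgeR adjusted p = 0.0578). HMRKO + sham versus LC + sham gave -0.78 ± 0.29 (edgeR adjusted p = 0.72).

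The call on Irs1 in LC livers was lost without LC + MI replicate 1 or 2 or without any of the 3 LC + sham replicates (-1.29 to -1.01, edgeR adjusted p 0.0517 to 0.124). Irs1 overlaps the protein-coding gene Gm9747 on the opposite strand in GENCODE M21. Gm9747 had 74, 136 and 108 counts in HMRKO + MI, 177, 219 and 345 in LC + MI, 327, 226 and 223 in HMRKO + sham and 338, 294 and 449 in LC + sham, more than Irs1 in every liver. The strand setting of the counting is not given, so reads of the pair may have been shared and the Irs1 values are uncertain. At 12 hours Irs1 had 52, 69 and 106 estimated counts in C57 MI livers and 14, 15 and 9 in C57 sham livers, with a log2 fold change of -0.09 ± 0.41 (edgeR adjusted p = 0.857).

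Pik3r1 encodes the regulatory subunit p85α of PI3K. It measured 52.2, 34.1 and 52.2 CPM in HMRKO + MI livers, against 28.4, 38 and 34.5 CPM in LC + MI livers. Sham livers held 36.7, 33.4 and 36.5 CPM in HMRKO + sham and 36.1, 41.3 and 40.8 CPM in LC + sham. HMRKO + MI replicate 2 stood at the sham level while the other 2 HMRKO + MI livers lay above all 10 remaining ones. The log2 fold change was 0.46 ± 0.17 versus LC + MI (edgeR adjusted p = 0.0562; DESeq2 gave 0.0434) and 0.38 ± 0.17 versus HMRKO + sham (edgeR adjusted p = 0.0878). Without HMRKO + MI replicate 2 both passed (0.64, edgeR adjusted p = 0.0139, and 0.56, edgeR adjusted p = 0.0136), as did the interaction (0.79, edgeR adjusted p = 0.0355). In C57 livers at 12 hours it measured 7.27, 7.47 and 7.04 TPM after MI, against 9.95, 9.39 and 8.6 TPM after sham, whereas the TMM log2 fold change was 0.24 ± 0.18 (edgeR adjusted p = 0.273), with the opposite sign under library size alone (-0.41, edgeR adjusted p = 0.0797) and after thinning (-0.26).

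Akt1 and Akt2 encode the 2 AKT kinases of liver, of which AKT2 is the main one in insulin's control of metabolism. Akt1 measured 53.2, 59.9 and 52.5 CPM in HMRKO + MI livers, against 33.2, 30.4 and 41.4 CPM in HMRKO + sham livers. LC livers held 30, 48.1 and 41.4 CPM after MI and 33.2, 35.1 and 31 CPM after sham. The HMRKO + MI group lay above every other liver at 1 day. Akt1 rose in HMRKO + MI versus HMRKO + sham, with a log2 fold change of 0.66 ± 0.17 (edgeR adjusted p = 0.00806), which was 0.51 with library size alone (edgeR adjusted p = 0.0727). Versus LC + MI it was 0.47 ± 0.17 (edgeR adjusted p = 0.0523; DESeq2 gave 0.0373), and it passed without LC + MI replicate 2 (0.63, edgeR adjusted p = 0.0233) or HMRKO + sham replicate 3 (0.47, edgeR adjusted p = 0.0495).

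Akt2 was level across the livers at 1 day. It measured 61.6, 78.8 and 71.3 CPM in HMRKO + MI livers, 75.9, 81.8 and 77.5 CPM in LC + MI livers, 76.3, 79.3 and 77 CPM in HMRKO + sham and 69, 78.6 and 68.5 CPM in LC + sham. Its log2 fold changes over the 4 pairwise comparisons ran from -0.15 to 0.12, each with an SE of 0.12, and none passed. In C57 livers at 12 hours Akt2 measured 33.2, 45.8 and 43.6 TPM after MI, against 19.2, 30.5 and 25.9 TPM after sham, without overlap. Its log2 fold change was 1.32 ± 0.23 (edgeR adjusted p = 0.000465), and 0.67 with library size alone (edgeR adjusted p = 0.0207). Akt1 measured 38, 41.7 and 31.6 TPM in C57 MI livers, against 24.6, 27.8 and 30.5 TPM in C57 sham livers, with a log2 fold change of 1.01 ± 0.20 (edgeR adjusted p = 0.00106) that was 0.36 with library size alone (edgeR adjusted p = 0.142).

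Foxo1 and Foxo3 encode FOXO transcription factors, and FOXO1 is the one best known for raising hepatic gluconeogenic genes when insulin is low. Foxo3 measured 16.9, 17 and 19.7 CPM in HMRKO + MI livers, against 36.5, 31.9 and 32.5 CPM in HMRKO + sham livers. In LC livers it measured 23.6, 16.8 and 16.8 CPM after MI, against 25.8, 34.2 and 35.2 CPM after sham. MI livers lay below sham livers in both genotypes, and the 6 MI livers did not overlap the 6 sham livers. Foxo3 fell in both, by 0.91 on the log2 scale in HMRKO (SE 0.17, edgeR adjusted p = 0.001) and by 0.74 in LC (SE 0.16, edgeR adjusted p = 0.0267), and the interaction was -0.18 ± 0.23 (edgeR adjusted p = 0.625). The LC call was lost without LC + MI replicate 2 or 3 or LC + sham replicate 2 or 3 (edgeR adjusted p 0.0862 to 0.114), and the HMRKO call held without each of the 12 livers. HMRKO + MI versus LC + MI gave -0.09 ± 0.17 (edgeR adjusted p = 0.694).

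In C57 livers at 12 hours Foxo3 measured 3.67, 3.79 and 4.03 TPM after MI, against 7.85, 7.6 and 9.03 TPM after sham. The log2 fold change was -0.47 ± 0.18 on the TMM scale (edgeR adjusted p = 0.0429), and the call was lost without any single one of the 6 livers (-0.56 to -0.34, edgeR adjusted p 0.05 to 0.182) and after thinning to the shallowest depth (-0.47, edgeR adjusted p = 0.141). With library size alone it was -1.12 (edgeR adjusted p = 0.000461).

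Foxo1 measured 29, 17 and 23.4 CPM in HMRKO + MI livers, 17.4, 15.5 and 12.6 CPM in LC + MI livers, 24.9, 23.6 and 20.3 CPM in HMRKO + sham and 17.8, 26.8 and 20.7 CPM in LC + sham. LC + MI was the lowest group, and it overlapped HMRKO + MI through HMRKO + MI replicate 2. Foxo1 was higher in HMRKO + MI than in LC + MI by 0.61 ± 0.21 on the log2 scale (edgeR adjusted p = 0.0419). That call was lost with library size alone (0.55, edgeR adjusted p = 0.0526), when only the groups compared were fitted (edgeR adjusted p = 0.0614), and without any of 7 livers (HMRKO + MI replicates 1 and 3, LC + MI replicates 1, 2 and 3, HMRKO + sham replicate 1, LC + sham replicate 3), with edgeR adjusted p up to 0.164. LC + MI versus LC + sham gave -0.52 ± 0.21 (edgeR adjusted p = 0.161), and HMRKO + MI versus HMRKO + sham 0.01 ± 0.21 (edgeR adjusted p = 0.975).

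At 12 hours Foxo1 showed the largest fall of the 10 genes. It measured 9.97, 8.76 and 8.93 TPM in C57 MI livers, against 33.3, 44.1 and 29.2 TPM in C57 sham livers, with a log2 fold change of -1.32 ± 0.21 (edgeR adjusted p = 0.000257). It remained called under each scaling tried and without each of the 6 livers. The 3 C57 MI livers lay well below the 3 C57 sham livers, and at 1 day LC + MI also lay below LC + sham without overlap, although that value was not past the test, whereas HMRKO livers after MI and after sham overlapped.

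**Figure D2:**
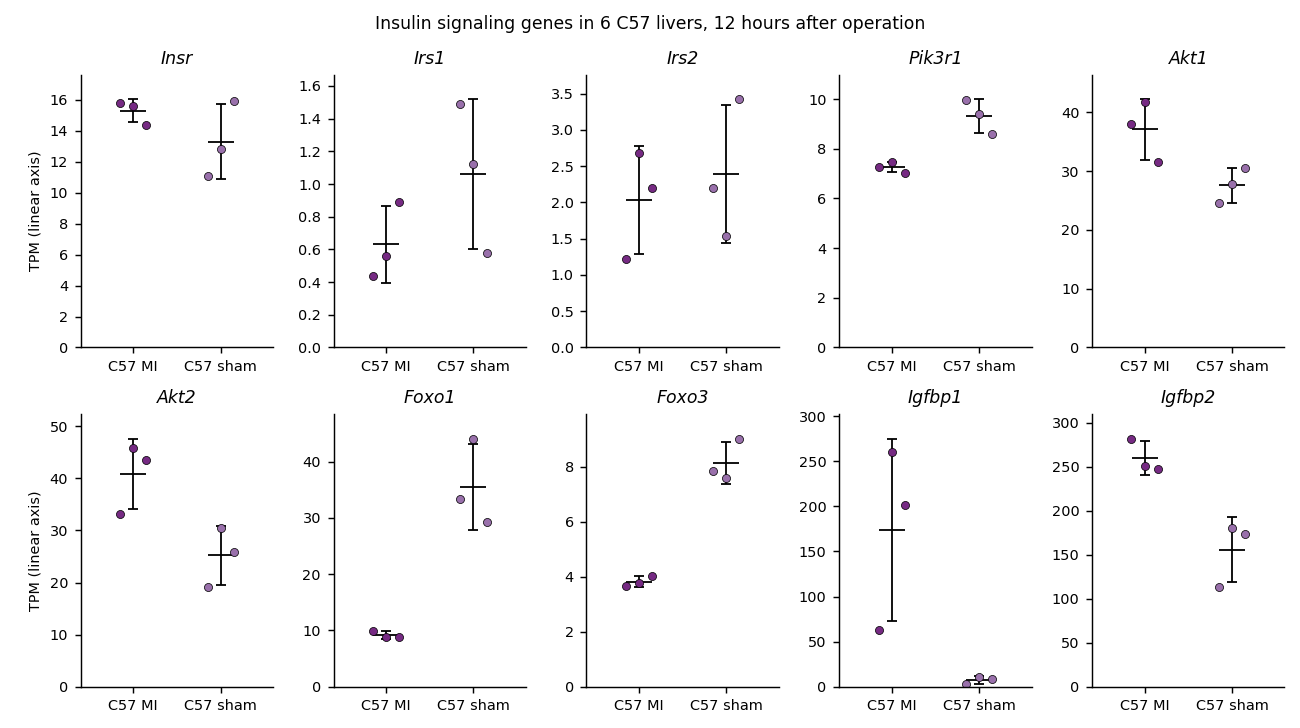
TPM of the 10 genes in each of the 6 C57 livers at 12 hours (y axis, linear), C57 MI left of C57 sham, with points for livers and bars for mean ± SD (n = 3). On this scale Igfbp1, Igfbp2, Akt1 and Akt2 lie higher after MI without overlap, and Foxo1, Foxo3 and Pik3r1 lower, although Pik3r1 has the opposite sign (0.24) on the TMM scale.

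Counted over the 10 genes at an edgeR adjusted p under 0.05, LC + MI versus LC + sham had 0 higher and 2 lower (Irs1, Foxo3), against 2.68% of all genes tested called higher and 2.33% called lower. HMRKO + MI versus LC + MI had 4 higher (Igfbp1, Igfbp2, Irs2, Foxo1) and 0 lower, against 14.6% and 16.2%. In HMRKO + MI versus HMRKO + sham 3 were higher (Igfbp1, Irs2, Akt1) and 1 lower (Foxo3), against 22.0% and 21.7%. The comparison of HMRKO + sham with LC + sham called none of the 10 (2 at an unadjusted p under 0.05, Irs1 and Igfbp1, and 0 by DESeq2), against 0.0210% and 0.0140%. The interaction called 2 higher (Igfbp1, Igfbp2), against 6.74% higher and 8.50% lower. In C57 MI versus C57 sham 5 were higher (Igfbp1, Igfbp2, Akt2, Akt1, Insr) and 2 lower (Foxo1, Foxo3), against 34.3% and 32.0%. Several of these comparisons share a group of livers and are not independent of each other.

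With the further requirement of an absolute log2 fold change over 1, Irs1 was the 1 gene lower in LC + MI versus LC + sham (background 1.44% higher, 1.04% lower). Igfbp1 and Igfbp2 were higher in HMRKO + MI versus LC + MI (4.58% and 7.77%), and Igfbp1 and Irs2 in HMRKO + MI versus HMRKO + sham (9.06% and 11.4%). None qualified in HMRKO + sham versus LC + sham (0.0210% and 0.00701%). At 12 hours Igfbp1, Igfbp2, Akt1 and Akt2 were higher and Foxo1 lower (25.5% and 26.7%).

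The median log2 fold change of the 10 genes was 0.46 in HMRKO + MI versus LC + MI, beside -0.01 over all genes tested, and 0.34 beside 0.01 in HMRKO + MI versus HMRKO + sham. In LC + MI versus LC + sham it was -0.05 beside 0.01, and at 12 hours 0.60 beside 0.11. Scaling by library size alone shifted all genes by -0.65 at 12 hours, by -0.14 in HMRKO + MI versus HMRKO + sham and by -0.11 in LC + MI versus LC + sham. At 12 hours it left 3 of the 10 genes called higher (Igfbp1, Igfbp2, Akt2) and 2 called lower (Foxo1, Foxo3), with 2116 genes higher and 5620 lower over the table, against 4299 and 4013 under TMM. At 1 day the same scaling gave, for LC + MI versus LC + sham, 249 genes higher and 573 lower (382 and 332 under TMM). For HMRKO + MI it gave 1232 and 2498 versus LC + MI (2089 and 2311) and 2015 and 3756 versus HMRKO + sham (3138 and 3099), and for the interaction 487 and 1248 (962 and 1213).

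**Figure D3:**
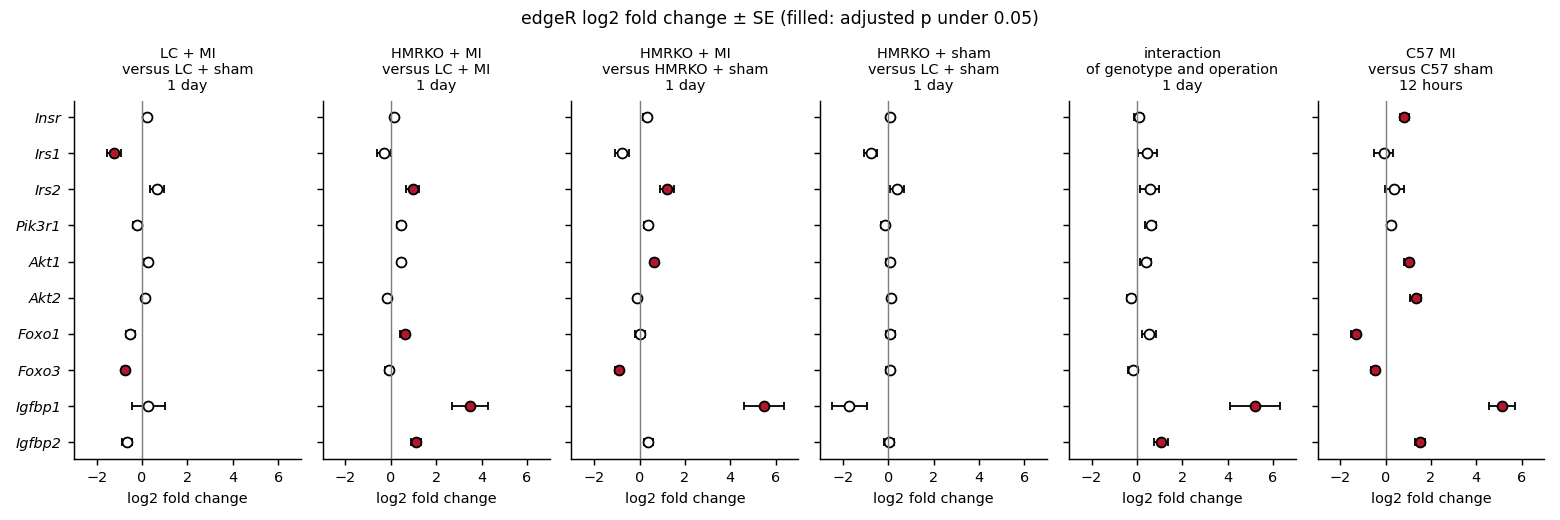
Log2 fold change from edgeR (x axis, bars ± SE) of the 10 genes (rows) in the 6 comparisons (panels), filled where the adjusted p was under 0.05. Igfbp1 stands at 3.49 for HMRKO + MI versus LC + MI, at 5.48 for HMRKO + MI versus HMRKO + sham, at 5.12 for C57 MI versus C57 sham and at 0.28 in LC + MI versus LC + sham.

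Markers of some other cell types moved with the groups, while others overlapped. Kupffer cell markers (6 of 6 found) summed to 51.2 to 115 CPM in HMRKO + MI livers and 81.6 to 83.6 CPM in LC + MI livers. They were 86.5 to 113 CPM in HMRKO + sham and 113 to 165 CPM in LC + sham. Sinusoidal endothelial markers (5 of 5) were 87.3 to 111 CPM in HMRKO + MI and 96.5 to 101 CPM in LC + MI. Summed neutrophil markers (6 of 6 found) were 23.5 to 25.7 CPM in HMRKO + MI livers, 6.16 to 13.8 CPM in LC + MI livers, 3.85 to 6.36 CPM in HMRKO + sham and 1.68 to 6.78 CPM in LC + sham. Lymphocyte markers (6 of 6) ran the other way, with 0.402 to 0.951 CPM in HMRKO + MI livers, 1.25 to 1.7 CPM in LC + MI livers, 2.14 to 3.77 CPM in HMRKO + sham and 2.17 to 6.17 CPM in LC + sham. At 12 hours the summed hepatocyte markers were 74000 to 103486 CPM in C57 MI and 28289 to 30990 CPM in C57 sham, and stellate cell markers (5 of 5) were 111 to 159 CPM in C57 MI and 227 to 374 CPM in C57 sham. Neutrophil markers there were 21.3 to 61.6 CPM in C57 MI and 6.95 to 10.7 CPM in C57 sham, and lymphocyte markers 1.16 to 1.79 CPM in C57 MI and 4.35 to 8.25 CPM in C57 sham, each without overlap. Sums of Kupffer cell, sinusoidal endothelial, cholangiocyte and erythroid markers overlapped between C57 MI and C57 sham, but single markers within these sums were called. Of the 4 cholangiocyte markers 3 were called lower and 1 higher. Krt19 had means of 4.52 CPM in C57 MI and 32.5 CPM in C57 sham, and Spp1 55.2 and 24.6 CPM. Kupffer cell markers had 0 called higher and 1 lower, and sinusoidal endothelial markers 1 higher and 0 lower. Of all genes, 34.3% were called higher and 32.0% lower. Of the 5 stellate markers 4 were called lower at 12 hours, and Lrat was level, at means of 8.18 CPM in C57 MI and 8.33 CPM in C57 sham. Of the markers found in all 8 lists, the erythroid Hbb-b1 alone was at 0 in every liver of a group, C57 MI. Their part in the values of the 10 genes was not tested.

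Other genes of the pathway, in 7 lists, gave 70 genes tested at 1 day and 69 at 12 hours. In LC + MI versus LC + sham 0 were higher and 2 lower, against 2.68% and 2.33% of all genes. The 2 were Deptor (-0.99), an inhibitor of mTOR complexes, and Srebf1 (-1.52), the lipogenic transcription factor that insulin induces. HMRKO + MI versus LC + MI had 8 higher and 11 lower (median 0.12), against 14.6% and 16.2% of all genes, and HMRKO + MI versus HMRKO + sham 17 higher and 18 lower (median -0.12), against 22.0% and 21.7%. HMRKO + sham versus LC + sham had none in either direction (1 at an unadjusted p under 0.05 by edgeR, 0 by DESeq2), and the interaction 5 higher and 3 lower, against 6.74% and 8.50%. At 12 hours 24 were higher and 22 lower (median 0.25), against 34.3% and 32.0%. The shares called in the lists thus lay near those over all genes. Library size alone turned these splits towards lower calls, to 12 higher and 30 lower at 12 hours, 4 and 14 for HMRKO + MI versus LC + MI, 10 and 22 versus HMRKO + sham, 2 and 4 in the interaction and 0 and 5 for LC + MI versus LC + sham.

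Among kinases and adaptors, Pdpk1, the kinase that phosphorylates AKT, was higher in HMRKO + MI versus LC + MI by 1.19 on the log2 scale and versus HMRKO + sham by 1.12, with an interaction of 1.56, but lower in C57 MI versus C57 sham (-1.14). The adaptors Sos1 (0.59, 0.92) and Crk (0.67, 0.73) were higher in the same pair of HMRKO + MI comparisons, also with interactions past the test (0.82 and 0.86). Mtor was higher by 0.49 and 0.72. Other genes of these lists were lower. In HMRKO + MI versus LC + MI, receptor and adaptors (8 tested) had 3 higher and 1 lower, and AKT, mTOR and GSK3 (15 tested) 2 and 3. Versus HMRKO + sham the same lists had 4 and 2, and 4 and 3. The PI3K list (6 tested) had 1 and 0, and 1 and 2. The brakes (16 tested) had 2 and 2, and 4 and 3. Of all genes, 14.6% were higher and 16.2% lower versus LC + MI, and 22.0% and 21.7% versus HMRKO + sham. Of the brakes on the pathway, Trib3, a pseudokinase that binds AKT, was higher by 1.45 and 1.17, and Ptpn2, a tyrosine phosphatase of the insulin receptor, by 0.89 in each, whereas the receptor phosphatase Ptprf was lower (-0.99 and -1.28). All 3 also passed the interaction, with 1.48, 0.71 and -0.95. At 12 hours Socs3, a cytokine-induced inhibitor of insulin receptor signaling, measured 222, 183 and 149 CPM in C57 MI livers, against 17.7, 27.7 and 42.4 CPM in C57 sham livers (log2 fold change 2.63). Of the 16 brakes 7 were higher and 2 lower there, against 34.3% and 32.0% of all genes.

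Among genes that insulin induces, Srebf1 measured 40.1, 50.5 and 49.2 CPM in HMRKO + MI livers and 111, 88 and 87 CPM in LC + MI livers, against 263, 242 and 417 CPM in HMRKO + sham and 282, 230 and 309 CPM in LC + sham. The MI livers lay below the sham livers in both genotypes, and HMRKO + MI below LC + MI, in each case without overlap. Srebf1 had a log2 fold change of -2.72 ± 0.22 in HMRKO + MI versus HMRKO + sham (edgeR adjusted p = 1.02e-05), -1.03 ± 0.21 versus LC + MI (edgeR adjusted p = 0.00437) and -1.52 ± 0.21 in LC + MI versus LC + sham (edgeR adjusted p = 0.00301), with an interaction of -1.20 ± 0.30 (edgeR adjusted p = 0.0218). In C57 livers Srebf1 measured 32, 36.6 and 26.1 CPM after MI, against 93.7, 58.1 and 85.1 CPM after sham (-1.32 ± 0.23). Pnpla3, a lipid droplet protein, measured 1.97, 1.17 and 2.31 CPM in C57 MI livers, against 46.5, 31.2 and 24 CPM in C57 sham livers (-4.19 ± 0.34). At 1 day Pnpla3 measured 0.651, 1.61 and 1.42 CPM in LC + MI livers and 1.26, 1.18 and 0.934 CPM in LC + sham, which overlap. HMRKO livers held 3.97, 2.34 and 0.761 CPM after MI and 6.79, 0.674 and 15.8 CPM after sham, also with overlap. Of the 5 listed genes, HMRKO + MI versus HMRKO + sham had 0 higher and 3 lower (Srebf1, Acly, Thrsp), against 22.0% and 21.7% of all genes. At 12 hours 1 was higher (Acly, not called with library size alone) and 2 lower (Pnpla3, Srebf1), near the 34.3% and 32.0% of all genes.

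The list of other FOXO factors and FOXO targets, which leaves out Igfbp1 and Irs2 because they are among the 10 genes, had 13 genes tested at 1 day. In HMRKO + MI versus LC + MI, where Igfbp1 and Irs2 were called higher, 0 of these 13 were higher and 2 lower (Foxo4, another FOXO factor, and Apoc3), against 14.6% and 16.2% of all genes. In HMRKO + MI versus HMRKO + sham 3 were higher (Pdk4, G6pc, Mttp) and 4 lower (Bcl6, Foxo4, Cited2, Apoc3), near the 22.0% and 21.7% of all genes. G6pc, the catalytic subunit of glucose-6-phosphatase, measured 345, 299 and 226 CPM in HMRKO + MI livers and 102, 245 and 68.6 CPM in LC + MI livers, against 45.4, 40.5 and 136 CPM in HMRKO + sham and 25.2, 163 and 49.1 CPM in LC + sham. As with Igfbp1, replicate 2 was the highest liver within LC + MI and within LC + sham. At 12 hours 4 of 12 were higher and 5 lower, against 34.3% and 32.0% of all genes, with G6pc at 463, 259 and 451 CPM in C57 MI, against 27.7, 35.2 and 59.1 CPM in C57 sham (3.25 ± 0.34).

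Of the other IGF binding proteins and IGFs, Igfals, the acid-labile subunit that holds IGFs in plasma, was lower in HMRKO + MI versus LC + MI (-1.86) and versus HMRKO + sham (-2.44), and in C57 MI versus C57 sham (-1.45). Its interaction was -2.19 (edgeR adjusted p = 0.0112). Igfbp3 was higher in HMRKO + MI versus HMRKO + sham (1.21), Igfbp6 lower in HMRKO + MI versus LC + MI (-1.86), and Igfbp4 higher in C57 MI versus C57 sham (2.27). No other member of this list of 7 tested genes passed at 1 day. The list thus had 0 higher and 2 lower versus LC + MI, against 14.6% and 16.2% of all genes. Versus HMRKO + sham it had 1 and 1, against 22.0% and 21.7%, and in the interaction 0 and 1, against 6.74% and 8.50%. In C57 MI versus C57 sham the list had 1 higher (Igfbp4) and 3 lower, against 34.3% and 32.0% of all genes. Igfbp5 measured 8.14, 9.11 and 9.94 CPM in C57 MI livers, against 35.4, 21.7 and 19.1 CPM in C57 sham livers.

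**Figure D4:**
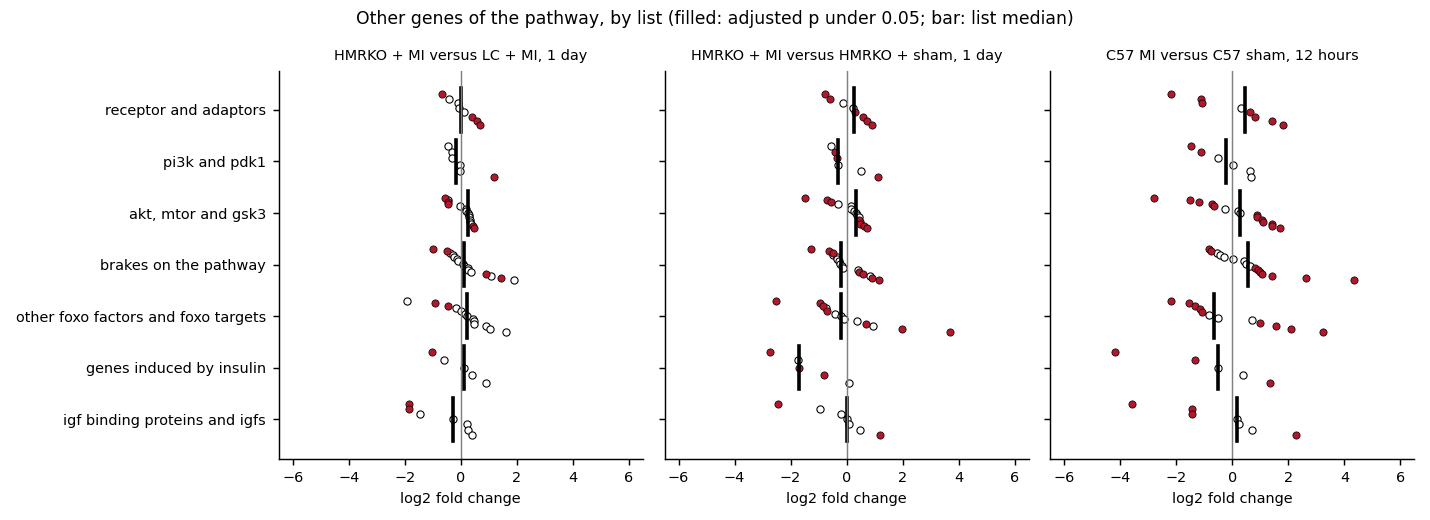
Log2 fold change from edgeR (x axis) of each tested gene of the 7 pathway lists (rows) in 3 comparisons (panels), filled where the adjusted p was under 0.05, with a bar at each list's median. Srebf1 is the leftmost point for HMRKO + MI versus HMRKO + sham, at -2.72, and Pnpla3 for C57 MI versus C57 sham, at -4.19.

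Genes whose levels ran most like Igfbp1 were ranked by Pearson's r of log2(CPM + 0.1) over the 12 livers at 1 day, which share 4 groups, so r largely reflects the group means. The 5 highest were the noncoding 1200007C13Rik (r = 0.970), Heatr1 (0.968), a ribosome biogenesis factor, Nfasc (0.960), a cell adhesion protein, Grn (0.953), which encodes progranulin, and Klf11 (0.950), a zinc finger transcription factor. Of the cascade itself, Irs2 (0.873) and Akt1 (0.822) were nearest to Igfbp1, and Foxo3 (-0.689) and Irs1 (-0.613) farthest. Ranked by Spearman's rho, 1 of the 5 genes was shared (Nfasc, 0.951). The last of those 5 places was tied, because 1200007C13Rik and Grn had the same rho as Armcx4, which filled it (0.930). Grn measured 449, 389 and 463 CPM in HMRKO + MI livers, against 215, 262 and 198 CPM in LC + MI livers, 154, 185 and 193 CPM in HMRKO + sham and 189, 210 and 175 CPM in LC + sham.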

How the data were processed

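Hepatic RNA sequencing from 18 mice was analysed as 2 experiments, 12 livers in 4 groups at 1 day and 6 livers in 2 groups at 12 hours, grouped by the labels. For 1 day the values the authors deposited are raw read counts of each gene. For 12 hours each gene has, as deposited, an FPKM, a TPM and an estimated count. The FPKM values and 6 columns of the authors' group means were not used. The authors' notes name the build mm9 and, without their roles, HISAT2 2.1.0, Bowtie2 2.2.3, DESeq2 and TopHat2. No source used here states the counting program or its strand setting, so reads of overlapping genes cannot be assigned further. Every column of values was mapped to a sample or group (0 were not). TPM and per-million values depend on the total of each library.

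Genes were kept by filterByExpr (minimum count 10, minimum total 15), scaled by TMM and tested with the quasi-likelihood F test of edgeR 4.0.16 (R 4.3.3), with 1 coefficient per group, over the 12 livers at 1 day and separately over the 6 livers at 12 hours, after rounding of the estimated counts. Benjamini-Hochberg adjustment ran over all tested genes, and calls needed an adjusted p under 0.05. SE was derived from the log2 fold change and its F value. Biological coefficients of variation were 0.209 (1 day) and 0.24 (12 hours). The script was tested on simulated counts. The labels number the livers of a group. Each p value sets a difference between groups against the spread between livers, estimated over all groups of that experiment.

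The 10 genes, the pathway and marker lists and the rule for naming other genes (per list and comparison, at most 6 genes at an adjusted p under 0.05, smallest p first; the 5 genes with the highest Pearson's r with Igfbp1; Nr3c2) were chosen with earlier results of these data known. One listed pathway gene is not reported here and was left out of the list counts. Gm9747 was named after its values were seen, because it overlaps Irs1. Alternatives were RLE size factors, library size alone, removal of mitochondrially encoded genes, DESeq2 1.42.0, other filters, only the groups compared, a replicate block, leaving out each liver, an unadjusted p, limma 3.58.1 on log2(TPM + 1) and log2(TPM + 0.1), and, added after the depths were seen, thinning of the 12 hour libraries. Promoter windows came from RefSeq (GRCm38.p6). No coordinates of the authors' build are given.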

Additional observations from a re-analysis of the deposited data

Results flagged for a closer look

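The response of Igfbp1 to MI differed between HMRKO and LC livers by 5.20 on the log2 scale and that of Igfbp2 by 1.06, both by the interaction test of edgeR, and the Igfbp2 value was not called with library size alone (edgeR adjusted p = 0.0804). Igfbp2 also lay below sham without overlap in LC livers at 1 day (-0.67, not past the test) and above sham without overlap in C57 livers at 12 hours (1.50). The difference between these 2 experiments was not tested.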

How the results depend on the processing

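Of the 10 genes, the number called in LC + MI versus LC + sham was 2, with 0 when only the groups compared were fitted, 4 at an unadjusted p and 0 to 2 when single livers were left out. In HMRKO + MI versus LC + MI it was 4, with 6 by DESeq2, 3 under library size alone, 3 when only the groups compared were fitted and 2 to 5 with single livers left out. HMRKO + MI versus HMRKO + sham had 4, 7 at an unadjusted p and 4 to 5 with single livers left out. HMRKO + sham versus LC + sham had 0, and 2 at an unadjusted p. The interaction had 2, with 1 under library size alone (Igfbp2 was lost) and 1 to 2 with single livers left out. C57 MI versus C57 sham had 7, and 6 without any single liver. Under library size alone and on both TPM scales 5 of the 10 were called at 12 hours. Of the 7 called under TMM, Insr and Akt1 were the ones lost. The adaptor Sh2b1, called higher at 12 hours (0.63), was at -0.01 under library size alone and on both TPM scales. Mitochondrially encoded genes could not be removed at 12 hours because that table holds none. Same-numbered livers correlated at -0.135 to 0.182 in their deviations and share only a number. A replicate block left 1 gene called in the interaction, Igfbp1, with Igfbp2 at 1.05 (edgeR adjusted p = 0.0521), and lost Foxo1 in HMRKO + MI versus LC + MI (0.0501) and Foxo3 at 12 hours (0.0858). Depth limits the 12 hour sham values of Igfbp1, Irs1 and Irs2 most, at 4 to 24 estimated counts.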
